A study of Mus musculus with 24 samples.

Results

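Scar-associated macrophages are monocyte-derived cells that collect along fibrous bands in injured liver, take up lipid and debris into lysosomes, and release factors that act on matrix and on collagen-producing stellate cells. Closely related cells with the same markers are known from fatty tissue, atherosclerotic plaques and tumors, where they are often called lipid-associated macrophages. They differ from Kupffer cells, the resident macrophages of the liver, which settle before birth and carry their own markers. The 10 genes described here are Gpnmb, Trem2, Cd9, Cd63, Itgax, Mmp12, Lgals3, Lpl, Fabp5 and Ccr2. They were taken by symbol as known marker genes of this cell state, with earlier results of these livers known. All 10 were found among the 53467 genes of the count table, and all 10 were among the 19381 genes kept by a filter of at least 0.5 CPM (counts scaled to a common library size) in at least 2 livers.

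The livers came from 24 male C57BL/6JAusb mice, 14 to 15 weeks old at the plasmid injection, with 1 library per mouse. Every mouse received a hydrodynamic tail vein injection, a fast large-volume injection that carries plasmid DNA into a part of the hepatocytes, with 0.8 µg of the SB (Sleeping Beauty transposase) plasmid. The oncogene groups also received 10 µg of the AKT plasmid, which encodes a permanently membrane-bound AKT, together with 10 µg of either the c-Met or the NRas plasmid, the latter an activated mutant. From days 8 to 10 onwards each mouse received 10 to 11 intraperitoneal injections over 5 to 6 weeks, either of saline or of thioacetamide (TAA), a hepatotoxin that injures the tissue around the central veins, at doses of 100 and later 200 mg/kg. The groups without oncogenes were SB + saline (n = 4) and SB + TAA (n = 4). Those with AKT and c-Met were SB/AKT/c-Met + saline (n = 3) and, with injury, SB/AKT/c-Met + TAA (n = 4), called c-Met + saline and c-Met + TAA below. Those with AKT and NRas were SB/AKT/NRas + saline (n = 4) and, with injury, SB/AKT/NRas + TAA (n = 5), called NRas + saline and NRas + TAA. SB + saline was therefore not an untouched liver, since it shared the plasmid, the pressure injection and the repeated injections with all other groups. Each oncogene liver mixed cells with and without the plasmids.

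The libraries held 2152510 to 3399247 counts of distinct molecules (median 2832909), read from the 3′ ends of transcripts. Levels are given below as CPM after TMM scaling, as mean ± SD over livers, and changes as log2 fold changes ± SE from 1 edgeR quasi-likelihood model of the 6 groups. A gene was called where the adjusted p (Benjamini-Hochberg over all 19381 genes) was under 0.05, with no fold threshold. A pair of livers stood apart. SB + TAA replicate 4 held 8947 CPM over 10 skeletal muscle genes, against 4.71 to 36.8 CPM in the other livers. NRas + saline replicate 1 had the lowest human NRAS of the livers given it (12.3 CPM, against 17.9 to 218 CPM in the others) and the lowest share of records assigned to genes (13.75%). The 10 hepatocyte genes checked summed to 48380 to 111300 CPM in every liver. Calls among the 10 genes that rest on either are given with and without it, and so are the counts of list genes that leaving out the first moved most. In whole tissue, fewer cells of a type and less RNA per cell cannot be told apart, and several of the 10 genes are also used by other liver cells.

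The genes are spread over 8 chromosomes, and RefSeq promoter windows (GRCm38.p6, 250 bases before to 50 bases after the start) were at hand for 8 of them, with 2 starts for Mmp12. Since 9 of the 10 genes differed among the groups, as described below, these windows were searched on both strands for 3 short words. TGANTCA, where N is any base, includes TGACTCA and TGAGTCA, the words bound by AP-1 factors. It was found at Trem2, Itgax, the second start of Mmp12 and Gpnmb, that is at 4 of 8 genes. Of all 32851 windows, 7.81% hold it. The match was TGACTCA at Gpnmb and TGAGTCA at Itgax and Mmp12. At Trem2 it was TGAATCA, which is neither of the AP-1 words. The share of all windows with an AP-1 word alone was not counted. GAGGAA, a core that PU.1 binds, was found at Trem2, Cd63 and the first start of Mmp12, and 28.3% of all windows hold it. CACGTG, the core bound by the lysosomal factors TFEB and MITF, was in none of the 9 windows of these genes, and 7.15% of all windows hold it. These counts are a description of letters and were not tested. The 4 matches of TGANTCA are shown in capitals in the bases just before the start of 3 genes and, for Gpnmb, in 30 bases around a match that begins at base 9 of the RefSeq transcript and lies before the start of the gene in the GENCODE annotation. All lie on the plus strand, at chr17:48346301-48346400, chr7:128129450-128129549, chr9:7347274-7347373 and chr6:49036515-49036544.
Trem2: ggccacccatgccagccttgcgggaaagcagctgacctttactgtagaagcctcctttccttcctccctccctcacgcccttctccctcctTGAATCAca
Itgax: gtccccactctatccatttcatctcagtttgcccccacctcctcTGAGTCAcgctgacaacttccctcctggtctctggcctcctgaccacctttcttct
Mmp12: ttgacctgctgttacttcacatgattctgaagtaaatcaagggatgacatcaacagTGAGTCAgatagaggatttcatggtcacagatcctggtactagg
Gpnmb: ccaggggcaagTGACTCAtgagcacgagtt

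Among the 6 groups, 9 of the 10 genes differed by the edgeR F test, against 9.01% of all genes. The exception was Lpl (adjusted p = 0.0781). Every gene had its lowest mean in SB + saline, and the livers of the other 5 groups overlapped from each group to the next in the order of their means for all 10 genes. The order itself was not shared. Gpnmb, Trem2, Mmp12 and Lpl had their highest mean in SB + TAA, Cd9, Lgals3 and Cd63 in NRas + TAA, Fabp5 and Itgax in NRas + saline, and Ccr2 in c-Met + TAA. For Lpl the first place rests on SB + TAA replicate 4, and by median its highest group is NRas + saline.

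**Figure D1:**
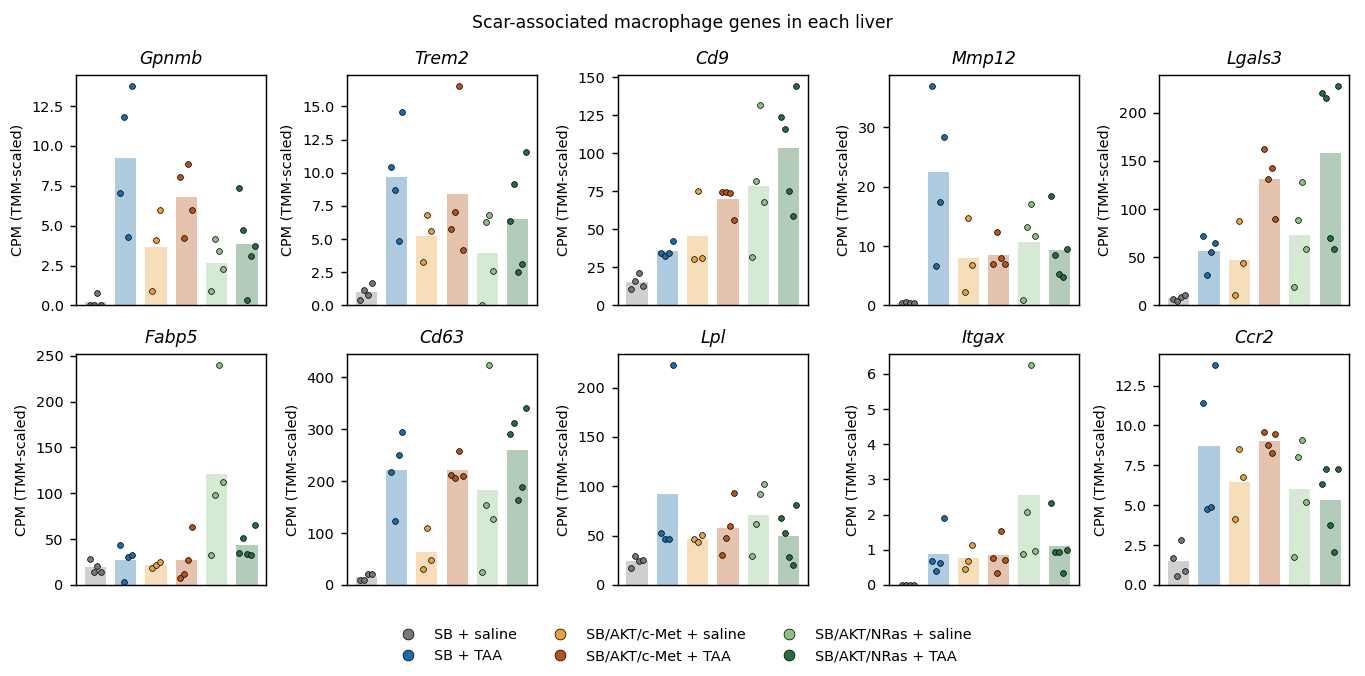
Level of each gene in CPM (TMM-scaled, linear axes from 0) in the 24 livers, where points are livers and bars are group means. The SB + saline mean is the lowest in every panel, although single livers overlap with other groups in Fabp5 and Lpl among others, SB + TAA replicate 4 stands apart in Lpl at 222.9 CPM, and the NRas + saline livers are spread widely in Cd63 and Fabp5.

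Gpnmb, a lysosomal and surface glycoprotein of lipid-laden macrophages (ENSMUSG00000029816, chromosome 6, 49036546 to 49070929), was close to absent in SB + saline. It had 0 CPM in replicates 1, 2 and 4 and 0.802 CPM in replicate 3, which comes to 2 counts over the group. In SB + TAA the livers held 7.06, 11.8, 4.28 and 13.8 CPM, a mean of 9.24 ± 4.35. All 4 were above every control liver. c-Met + saline had 0.926, 4.10 and 6.00 CPM, and NRas + saline had 0.879, 4.18, 3.41 and 2.28 CPM. With TAA the c-Met livers held 8.07, 4.22, 8.90 and 5.97 CPM, and the NRas livers 0.314 to 7.34 CPM (median 3.76). The lowest of the NRas + TAA livers fell within the range of the controls, and no other treated liver did. Because 2 counts stand in the denominator, the ratio of SB + TAA to SB + saline, 41.5, had a 95% exact binomial interval of 11.2 to 347, which covers counting error only. The ratios of the other groups lay between 12.5 and 30.5, with intervals that began at 3.21 to 8.17.

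Trem2, the lipid-sensing receptor that drives the programme of these macrophages (ENSMUSG00000023992, chromosome 17, 48346401 to 48354147), stood at 0.428, 1.14, 0.802 and 1.71 CPM in SB + saline. In SB + TAA it reached 10.4, 8.68, 4.89 and 14.6 CPM. The lowest TAA liver was thus above the highest control liver. c-Met + TAA held 5.76, 7.04, 16.6 and 4.21 CPM, and NRas + TAA held 2.51 to 11.5 CPM (median 6.34). Without TAA the levels were 5.23 ± 1.83 CPM in the c-Met livers and 3.92 ± 3.21 CPM in the NRas livers, where replicate 1 had no count. In these saline groups Trem2 did not pass the test. It was the only one of the 10 genes that was not called in NRas + saline.

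Cd9 and Cd63 are tetraspanins, small membrane proteins of the surface and of endosomes and lysosomes that many cell types use. Cd63 (ENSMUSG00000025351, chromosome 10, 128900989 to 128912822) stood at 9.42, 10.2, 20.5 and 20.6 CPM in SB + saline and at 218, 124, 251 and 295 CPM in SB + TAA. The groups did not come near each other. c-Met + saline held 30.6, 110 and 48.4 CPM, and c-Met + TAA held 212, 206, 258 and 209 CPM. In NRas + saline the livers were far apart, at 25.5, 154, 423 and 126 CPM, and with TAA they ranged from 163 to 341 CPM (median 291). The level of Cd63 is uncertain, because a close copy elsewhere in the genome, Cd63-ps, was counted alongside at 8.21 ± 1.86 CPM in SB + saline and 109 ± 35.5 CPM in SB + TAA, and reads with several matches in the genome were not counted.

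Cd9 (ENSMUSG00000030342, chromosome 6, 125460266 to 125494791) had another order of groups. It stood at 10.7, 15.9, 21.3 and 12.8 CPM in SB + saline and at 34.6, 32.4, 34.6 and 42.5 CPM in SB + TAA. The means of the oncogene groups were higher, at 45.8 ± 25.5 CPM in c-Met + saline, 69.9 ± 9.14 CPM in c-Met + TAA, 78.4 ± 41.2 CPM in NRas + saline and 104 ± 35.5 CPM in NRas + TAA. SB + TAA thus had the lowest mean of Cd9 in the 5 treated groups, but by median c-Met + saline was lower (31.5 against 34.6 CPM), since its mean rests on replicate 2 at 75.2 CPM. Replicates 1 and 3 of c-Met + saline, at 30.6 and 31.5 CPM, and NRas + saline replicate 1, at 32.1 CPM, lay below every SB + TAA liver.

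Itgax, the CD11c integrin of dendritic cells and inflammatory macrophages (ENSMUSG00000030789, chromosome 7, 128129547 to 128150657), had no count in any SB + saline liver. Its highest liver was NRas + saline replicate 3, at 6.25 CPM, and the other 3 livers of that group held 0.879, 2.09 and 0.976 CPM. Against a floor of 3 counts over the SB + saline group it was at least 8.36-fold higher in NRas + saline, at least 3.30-fold in NRas + TAA, at least 2.86-fold in SB + TAA, at least 2.58-fold in c-Met + TAA and at least 2.30-fold in c-Met + saline. The whole group totals behind these bounds were 6 to 33 counts, so at this depth Itgax gave the least precise values of the 10.

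Mmp12, the elastase that macrophages secrete to cut matrix (ENSMUSG00000049723, chromosome 9, 7344381 to 7369499), held 0.428, 0.568, 0.401 and 0.428 CPM in SB + saline, 4 counts in all. In SB + TAA it reached 37.0, 6.71, 17.4 and 28.4 CPM. Replicate 2 was low there, yet was above all control livers. The oncogene groups lay between, with means of 7.92 ± 6.27 and 8.56 ± 2.55 CPM in the c-Met livers with saline and with TAA, and of 10.7 ± 6.93 and 9.31 ± 5.44 CPM in the NRas livers. Adding TAA to the oncogenes therefore moved the group mean of Mmp12 by 0.636 CPM in the c-Met livers and by −1.41 CPM in the NRas livers, whereas TAA alone had moved it by 21.9 CPM.

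Lgals3, a secreted galectin that binds sugars on matrix and cell surfaces (ENSMUSG00000050335, chromosome 14, 47367751 to 47386160), stood at 6.42, 5.12, 9.22 and 10.7 CPM in SB + saline and at 71.9, 32.0, 55.7 and 64.6 CPM in SB + TAA. With saline the c-Met livers held 10.7, 87.5 and 44.2 CPM and the NRas livers 19.4, 88.4, 128 and 58.6 CPM. The highest levels were those of the combinations. c-Met + TAA held 163, 131, 142 and 90.2 CPM, all above SB + TAA, and NRas + TAA held 58.5 to 228 CPM (median 215.5).

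Lpl and Fabp5 serve lipid handling. Lpl, the lipase that frees fatty acids from lipoproteins (ENSMUSG00000015568, chromosome 8, 68880491 to 68907448), stood at 17.6, 29.6, 24.1 and 24.8 CPM in SB + saline. In SB + TAA it held 52.8, 47.0, 46.8 and 222.9 CPM, where the highest value belongs to the liver with the muscle transcripts. Lpl is also a gene of muscle and fat. The part of muscle in that value was not tested. Of 10 adipocyte genes listed, those dropped by the filter, Adipoq, Plin1 and Lep, had 3, 3 and 2 counts over all 24 livers. The 7 that were kept summed to 1040 to 15030 CPM. The part of fat in Lpl was not tested either. The other groups ranged from 19.9 CPM in NRas + TAA to 103 CPM in NRas + saline.

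Fabp5, a fatty acid carrier of macrophages and epithelia (ENSMUSG00000027533, chromosome 3, 10012548 to 10016607), held 27.8, 13.6, 21.3 and 13.7 CPM in SB + saline and 43.7, 3.16, 30.3 and 32.5 CPM in SB + TAA, so that the groups overlapped. NRas + saline stood out with 33.0, 97.8, 240 and 112 CPM. The other 5 groups had means of 19.1 to 43.9 CPM. Here too a near-identical copy, Gm6166, was counted at up to 32.4 CPM in NRas + saline, and the level of Fabp5 is uncertain for the same reason as that of Cd63.

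Ccr2, the chemokine receptor that brings monocytes out of the marrow and into injured tissue (ENSMUSG00000049103, chromosome 9, 124101950 to 124113557), stood at 1.71, 0.568, 2.81 and 0.856 CPM in SB + saline and at 11.4, 4.74, 4.89 and 13.8 CPM in SB + TAA. The highest control liver was below the lowest TAA liver. c-Met + TAA was the most even group, with 9.60, 8.80, 8.28 and 9.48 CPM. c-Met + saline held 6.49 ± 2.20 CPM, NRas + saline 6.02 ± 3.28 CPM and NRas + TAA 5.34 ± 2.33 CPM. Every NRas liver with TAA was below every c-Met liver with TAA, and this difference did not pass the test (−0.74 ± 0.38, adjusted p = 0.956).

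The first comparison asks what chemical injury alone did to these genes. In SB + TAA against SB + saline, 8 of the 10 genes were called higher, where 3.48% of all genes were called higher and 2.51% lower. The largest changes were those of Mmp12 (5.52 ± 0.81, adjusted p = 0.000146), Gpnmb (5.12 ± 0.84, adjusted p = 0.000548) and Cd63 (3.85 ± 0.53, adjusted p = 8.02e-05). Trem2 rose by 3.21 ± 0.70, Lgals3 by 2.81 ± 0.56 and Ccr2 by 2.47 ± 0.51. Lpl rose by 1.96 ± 0.47 and Cd9 by 1.25 ± 0.35. Fabp5 (0.52 ± 0.56, adjusted p = 0.643) and Itgax (adjusted p = 0.0536) did not pass. The median change of the 10 genes was 3.01, or 2.64 with Itgax set at its bound, beside 0.09 for all genes.

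The calls of Lpl and Cd9 were the least firm, and limma-voom made neither (adjusted p = 0.0585 and 0.0673). Without SB + TAA replicate 4 the change of Lpl was 1.03 (adjusted p = 0.183) and that of Cd9 1.15 (adjusted p = 0.108), which left 6 genes called. Lpl was also lost without SB + saline replicate 1 (adjusted p = 0.0501). Cd9 was lost without SB + TAA replicate 1 or 3 or SB + saline replicate 1, 2 or 4 (adjusted p = 0.0533 to 0.105), at changes of 1.09 to 1.26. The fitted value of Gpnmb went to 7.75 without SB + saline replicate 3, the only control liver with counts of it. The share of records assigned to genes was 15.6% to 16.69% in the controls and 20.68% to 23.13% in SB + TAA. The TMM factors (0.7719 to 0.8175 and 0.9432 to 1.145) did not overlap either, and their part in these changes was not tested. With library size alone as the scale, all 10 changes were positive in each comparison with SB + saline, and the median of all genes shifted by 0.26 to 0.43.

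**Figure D2:**
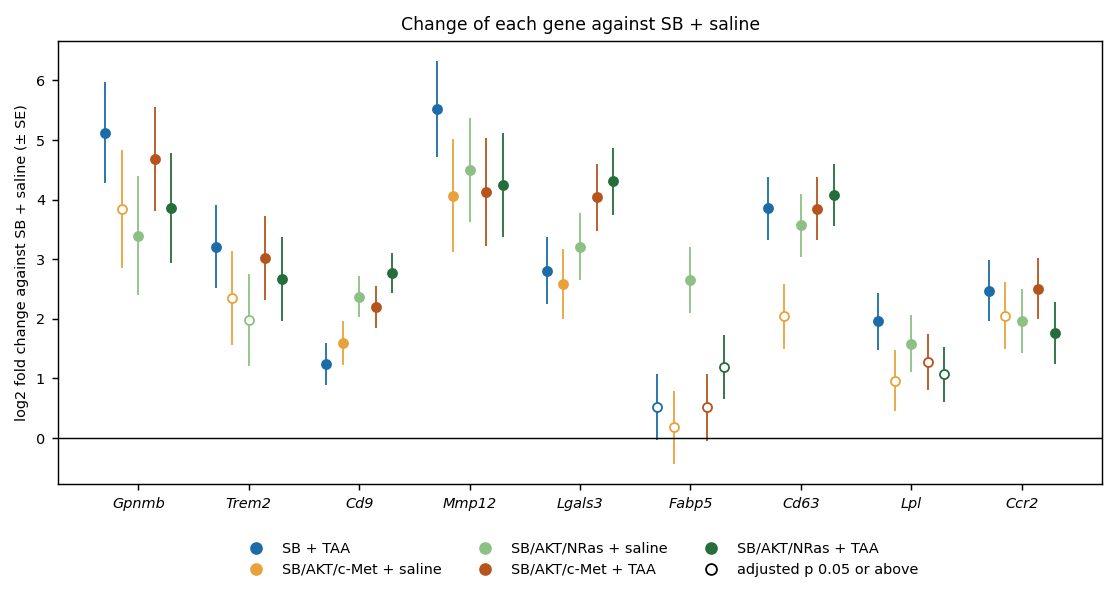
Change of 9 genes against SB + saline on the log2 scale (± SE from the model), for the 5 treated groups, with filled points where the adjusted p was under 0.05. Itgax is left out because it had no count in SB + saline, and Gpnmb rests on 2 counts there. Most points lie between 1 and 5. Fabp5 lies at 0.18 to 0.52 in SB + TAA and both c-Met groups, at 1.19 in NRas + TAA and at 2.65 in NRas + saline.

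The oncogene pairs without injury were compared with the same controls, and the 2 pairs differed in how many genes were called. In NRas + saline 9 of the 10 genes were called higher (5.56% of all genes were called higher, 2.84% lower). Mmp12 rose by 4.49 ± 0.87, Cd63 by 3.57 ± 0.53, Gpnmb by 3.40 ± 0.99, Lgals3 by 3.21 ± 0.56 and Fabp5 by 2.65 ± 0.55. Cd9 rose by 2.37 ± 0.35, Ccr2 by 1.96 ± 0.53 and Lpl by 1.58 ± 0.47, and Itgax was called as well (adjusted p = 0.00358). Trem2 was at 1.98 ± 0.77 (adjusted p = 0.114). The livers of this group overlapped with SB + saline in Trem2, Lpl and Ccr2, each through replicate 1 alone. Without replicate 1 all 10 genes were called. Without replicate 3, the highest liver, 6 were called, and Gpnmb, Lpl and Ccr2 were the ones lost, at adjusted p = 0.0989, 0.121 and 0.107. These 3 calls were also lost without SB + saline replicate 1, 2 or 4 or NRas + saline replicate 2, and that of Lpl in addition without SB + saline replicate 3 or NRas + saline replicate 4 (adjusted p = 0.052 to 0.112). limma-voom did not call Lpl (adjusted p = 0.0735) or Ccr2 (adjusted p = 0.0791) in this group.

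In c-Met + saline 3 of the 10 genes were called higher, beside 0.599% of all genes called higher and 0.0413% lower. They were Mmp12 (4.06 ± 0.95, adjusted p = 0.0345), Lgals3 (2.58 ± 0.59, adjusted p = 0.0302) and Cd9 (1.60 ± 0.37, adjusted p = 0.0319). Of these, Lgals3 overlapped with the controls, at 10.65 CPM in replicate 1. Gpnmb (3.84 ± 1.00, adjusted p = 0.072), Cd63 (2.04 ± 0.54, adjusted p = 0.0819), Ccr2 (2.05 ± 0.56, adjusted p = 0.096) and Trem2 (2.35 ± 0.79, adjusted p = 0.245) lay in the same direction. An unadjusted p under 0.05 was reached by 1958 of all 19381 genes and by 8 of the 10. With 3 livers the number of the 10 genes called depended on single ones. It was 0 without SB + saline replicate 1, 2 or 4 or c-Met + saline replicate 2, 1 without SB + saline replicate 3 or c-Met + saline replicate 3, 5 without c-Met + saline replicate 1, and 6 without NRas + saline replicate 1. Without its replicate 2 the change of Cd9 was 1.03. limma-voom called none of the 10 genes here and DESeq2 called 6.

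The direct comparison of the oncogene pairs without TAA called none of the 10 genes (edgeR, 0.124% of all genes were called higher), and limma-voom and DESeq2 also called none. By the unadjusted p, 1832 of all genes were under 0.05, and so were 4 of the 10. The nearest was Fabp5, which was 2.47 ± 0.61 higher in the NRas livers, with no overlap of the livers and an adjusted p of 0.108. Gpnmb (−0.45 ± 0.63), Trem2 (−0.37 ± 0.61), Mmp12 (0.43 ± 0.56) and Ccr2 (−0.09 ± 0.45) differed by less than their SE. Without NRas + saline replicate 1 there were 2 genes called, and without SB + TAA replicate 2 there was 1. The greater number of called genes in the NRas livers was thus not matched by a called difference between the models.

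The combinations of oncogenes and injury were compared with SB + saline as well. In c-Met + TAA 7 of the 10 genes were called higher (2.68% of all genes higher, 1.07% lower), with Gpnmb at 4.68 ± 0.88, Mmp12 at 4.13 ± 0.90, Lgals3 at 4.04 ± 0.57, Cd63 at 3.85 ± 0.53, Trem2 at 3.02 ± 0.71, Ccr2 at 2.51 ± 0.51 and Cd9 at 2.20 ± 0.35. In NRas + TAA 8 were called (5.7% higher, 3.55% lower), with Lgals3 at 4.31 ± 0.56, Mmp12 at 4.25 ± 0.86, Cd63 at 4.08 ± 0.53, Gpnmb at 3.86 ± 0.92, Cd9 at 2.77 ± 0.34, Trem2 at 2.66 ± 0.70 and Ccr2 at 1.77 ± 0.52, together with Itgax (adjusted p = 0.0242). Neither group passed for Fabp5 or Lpl. The calls of Trem2 were lost without SB + saline replicate 1 in both groups, without c-Met + TAA replicate 3 in the first and without SB + saline replicate 3 or NRas + TAA replicate 5 in the second (adjusted p = 0.0527 to 0.0779). In NRas + TAA the call of Itgax was lost without any SB + saline liver or without replicate 1, and that of Ccr2 without SB + saline replicate 1, 2 or 4 or without replicate 1, 2 or 5 (adjusted p = 0.0518 to 0.0992). The count was 5 there without SB + saline replicate 1. In c-Met + TAA limma-voom called 5 of the 10 genes, and Mmp12 (adjusted p = 0.0658) and Trem2 (adjusted p = 0.0854) were lost. In NRas + TAA it called 6, and Trem2 (adjusted p = 0.091) and Ccr2 (adjusted p = 0.092) were lost.

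The next question is what each combination added to its parts. Against SB + TAA, c-Met + TAA had none of the 10 genes called (0.268% of all genes were called higher), also by limma-voom and DESeq2. An unadjusted p under 0.05 was reached by 1726 of all genes and by 3 of the 10. Lgals3 (1.23 ± 0.47) and Cd9 (0.95 ± 0.32) were above SB + TAA in every liver, while Mmp12 lay at −1.39 ± 0.49 (adjusted p = 0.316), Gpnmb at −0.44 ± 0.48, Trem2 at −0.19 ± 0.49 and Ccr2 at 0.03 ± 0.39. NRas + TAA had 1 gene called (1.01% of all genes were called higher). This was Cd9, at 1.53 ± 0.31 (adjusted p = 0.00577), with every liver of the combination above every SB + TAA liver. Lgals3 lay at 1.50 ± 0.46 (adjusted p = 0.112), Mmp12 at −1.27 ± 0.45, Gpnmb at −1.26 ± 0.47, Trem2 at −0.55 ± 0.47 and Ccr2 at −0.71 ± 0.38. The count was 2 without NRas + saline replicate 1 or NRas + TAA replicate 4.

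Against the same oncogenes with saline, TAA gave no called gene in either model. In the c-Met livers 0.134% of all genes were called higher, all 10 changes were positive and 2 had an unadjusted p under 0.05, namely Cd63 (1.80 ± 0.52, adjusted p = 0.174) and Lgals3 (1.45 ± 0.53, adjusted p = 0.353). Gpnmb lay at 0.84 ± 0.58, Trem2 at 0.67 ± 0.58, Ccr2 at 0.45 ± 0.44 and Mmp12 at 0.06 ± 0.58. In the NRas livers 0.124% were called higher, 5 of the 10 changes were positive, and the 2 genes with an unadjusted p under 0.05 went opposite ways, Lgals3 at 1.10 ± 0.45 and Fabp5 at −1.46 ± 0.48 (adjusted p = 0.499 and 0.32). Of all genes, 1685 had an unadjusted p under 0.05 in the c-Met livers and 1677 in the NRas livers. Gpnmb lay at 0.47 ± 0.54, Trem2 at 0.69 ± 0.52, Mmp12 at −0.25 ± 0.47 and Ccr2 at −0.20 ± 0.39. limma-voom and DESeq2 called none of the 10 in either model. In the c-Met livers the count was 1 without NRas + saline replicate 1 or 3. Between the combinations themselves none of the 10 genes was called by any of the 3 tools (0.00516% of all genes were called higher), and 9 of the 10 genes overlapped. An unadjusted p under 0.05 was reached by 893 of all genes and by 0 of the 10.

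**Figure D3:**
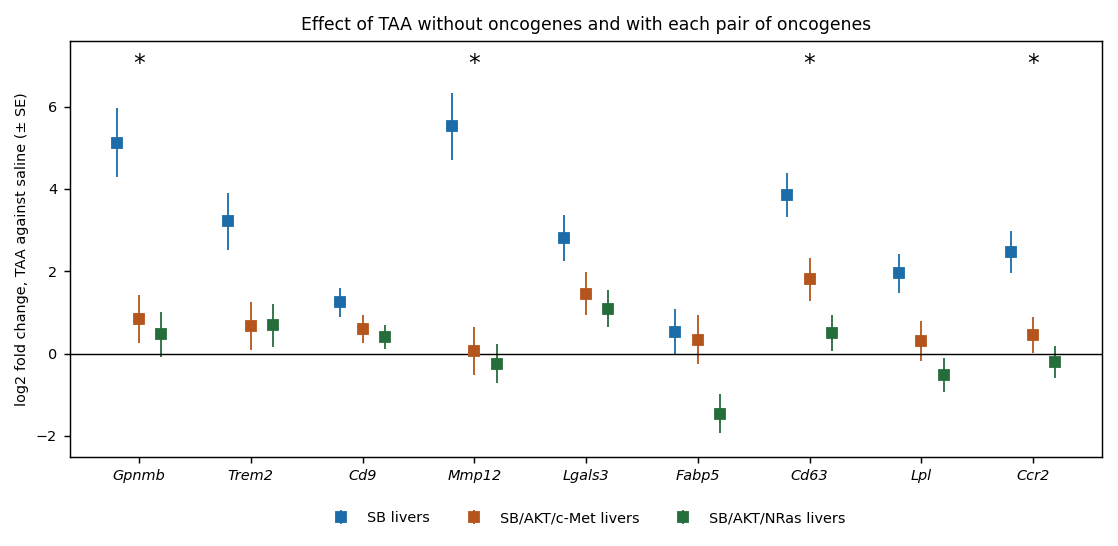
Effect of TAA against saline (log2 fold change ± SE from the model) in SB, c-Met and NRas livers for 9 genes, Itgax being left out because it had no count in SB + saline. Stars mark the 4 genes whose effect in NRas livers was called lower than in SB livers, Gpnmb, Mmp12, Cd63 and Ccr2, where the SB points lie at 5.12, 5.52, 3.85 and 2.47.

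Whether TAA acted less where oncogenes were present was tested as the difference of the TAA effects. For the NRas livers 4 of the 10 genes were called lower, against 0.583% of all genes. They were Mmp12 (−5.77 ± 0.98, adjusted p = 0.00694), Cd63 (−3.35 ± 0.66, adjusted p = 0.0138), Gpnmb (−4.66 ± 1.09, adjusted p = 0.0371) and Ccr2 (−2.67 ± 0.65, adjusted p = 0.0473), and Trem2 lay at −2.52 ± 0.90 (adjusted p = 0.186). For the c-Met livers none was called (0.0103% of all genes were called lower). limma-voom and DESeq2 also called none there, although 7 of the 10 and 1638 of all genes had an unadjusted p under 0.05. Mmp12 lay at −5.46 ± 1.06 (adjusted p = 0.0905), Gpnmb at −4.28 ± 1.12, Trem2 at −2.54 ± 0.94 and Ccr2 at −2.02 ± 0.69. All 10 differences were negative in both models, beside medians of all genes of −0.06 for the c-Met and −0.11 for the NRas livers. Both models subtract the TAA effect of the same SB livers, so their shared sign is not separate evidence. A log2 difference of this kind is large wherever SB + saline is near 0, so the same effects are given in CPM. TAA moved Gpnmb by 9.04 CPM in SB livers, 3.11 in c-Met livers and 1.16 in NRas livers, Ccr2 by 7.23, 2.55 and −0.676, and Cd63 by 206.7, 158 and 76.9. For Cd9 and Lgals3 the order was the other way round on this scale, with 20.8, 24.1 and 25.4 CPM for Cd9 and 48.2, 84.2 and 84.8 CPM for Lgals3. Their log2 differences were negative and did not pass.

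With edgeR, the calls of Mmp12 and Cd63 in the NRas livers held when any single liver was left out. That of Ccr2 was lost without 18 of the 24 livers and that of Gpnmb without 9. Each was lost without SB + saline replicate 1, 2 or 4, SB + TAA replicate 1 or 4, NRas + saline replicate 2, 3 or 4, or NRas + TAA replicate 4, which leaves a count of 2 (adjusted p of 0.0525 to 0.146). Without NRas + saline replicate 1 the count was 8. limma-voom called Gpnmb alone, and Mmp12 (adjusted p = 0.0708), Cd63 (adjusted p = 0.0927) and Ccr2 (adjusted p = 0.119) did not pass with it, while DESeq2 called 5 genes. For the c-Met livers it was 1 without SB + TAA replicate 2, c-Met + saline replicate 1 or NRas + saline replicate 1.

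The livers of a group differed in a way that most of the 10 genes shared. In NRas + saline, replicate 3 was above the group mean (on the log2 scale) in 10 of the 10 genes and replicate 1 in none, with mean deviations of 1.04 and −1.52. Their human NRAS, the transcript of the plasmid, was 218 and 12.3 CPM, and the 2 livers between them held 55.3 and 66.1 CPM. In NRas + TAA, replicates 3 and 4 were above the group mean in 0 and 1 genes and held 18.5 and 17.9 CPM of human NRAS, while replicates 1, 2 and 5 were above it in 9 genes each and held 34.0, 47.7 and 75.7 CPM. The part of the plasmid in these deviations was not tested. SB + TAA replicate 4 was above its group mean in all 10 genes and replicate 2 in 1, and c-Met + saline replicate 1 in none. c-Met + TAA was the most even of the treated groups, with mean deviations from −0.19 to 0.30.

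**Figure D4:**
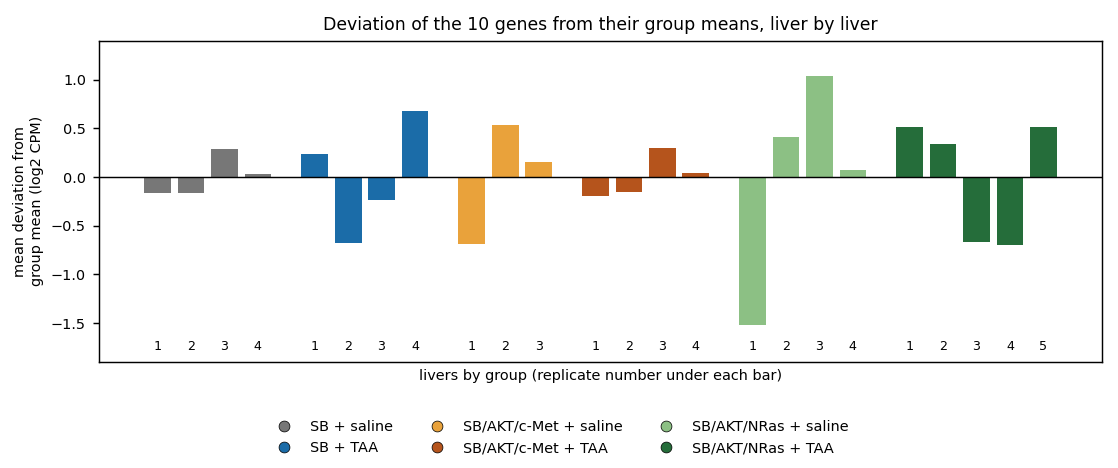
Mean deviation of the 10 genes from their group means in log2 CPM, 1 bar per liver, coloured by group and numbered by replicate. The bars reach from −1.52 in NRas + saline replicate 1 to 1.04 in replicate 3 of the same group, while the SB + saline bars stay between −0.16 and 0.29.

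Over the 24 livers the 45 pairs among the 10 genes had a median correlation of log2 CPM of 0.67 (0.03 to 0.93). With the group means removed it was 0.59, and all 45 pairs stayed above 0 (0.13 to 0.87). These correlations share libraries, scaling and the livers named above and are given as a description. Among 9252 genes with a mean of at least 5 CPM, the gene most like Gpnmb was Clec7a, the fungal-sugar receptor of macrophages (r = 0.92, and 0.72 with group means removed), followed by Cenpa and Rtn4. For Trem2 they were Ccnb1, Cx3cr1 and Rtn4 (r = 0.84 to 0.85), for Ccr2 Tubb6, Ms4a7 and Mmp12 (r = 0.86 to 0.87), and for Mmp12 Gsta1, Tubb6 and Gm13056 (r = 0.90 to 0.92). Cenpa and Ccnb1 are genes of dividing cells, and Cx3cr1 and Ms4a7 are genes of monocytes and macrophages.

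The nearest genes of the rest were as follows. Cd9 was most like Cyp21a1, Jpt1 and Npdc1 (r = 0.95 to 0.96), and Lgals3 most like Ptgr1, Sat1 and Klf6 (r = 0.95 to 0.97). Cd63 was closest to its copy Cd63-ps (r = 0.997), then to Ptgr1 and Klf6, and Fabp5 to its copy Gm6166 (r = 0.92), then to Nupr1 and Mpdz. Lpl was most like Twf2, Lsp1 and Etl4 (r = 0.84), and Itgax like Ly6e, Tmsb4x and Ifngr1 (r = 0.84 to 0.85). Of the macrophage markers in the lists below, Clec7a was near Gpnmb and Cx3cr1 near Trem2. None was among the nearest genes of Cd9, Lgals3, Cd63, Fabp5, Mmp12, Ccr2, Lpl or Itgax.

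Further genes of the lipid- and scar-associated programme, and of the functions around it, were taken from lists of known genes. The order of groups below is SB + TAA, c-Met + saline, NRas + saline, c-Met + TAA and NRas + TAA. Against SB + saline, 3.48%, 0.599%, 5.56%, 2.68% and 5.7% of all genes were called higher in them. An unadjusted p under 0.05 was reached by 4004, 1958, 4349, 3335 and 4494 of all 19381 genes. Of 21 partner genes, 5 were called higher in SB + TAA, 4 in c-Met + saline, 11 in NRas + saline, 6 in c-Met + TAA and 13 in NRas + TAA, all against SB + saline, and none was called lower. In either direction limma-voom called 5, 1, 7, 5 and 12 of them in this order of groups, and DESeq2 7, 4, 12, 9 and 15. With edgeR, Clec7a was called in all 5 groups and stood at 3.56 ± 1.36 CPM in SB + saline and 29.1 ± 2.40 CPM in SB + TAA (2.98 ± 0.36). Its call in c-Met + saline was lost with limma-voom (adjusted p = 0.0634). Cd36, a fatty acid receptor also of hepatocytes, was called in the 4 oncogene groups (1.62 to 2.20) and not in SB + TAA (0.52 ± 0.28, adjusted p = 0.3). Plin2, the coat of lipid droplets, was called by edgeR in 3 of the 4 oncogene groups and lay at 0.07 ± 0.27 in SB + TAA. Its call in c-Met + saline was also lost with limma-voom (adjusted p = 0.0542). Spp1 (osteopontin), made by bile duct cells as well as macrophages, went from 44.9 ± 4.10 CPM in SB + saline to 3011 ± 3845 CPM in NRas + saline, and was not called in SB + TAA (1.81 ± 0.89, adjusted p = 0.245).

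Trem2 signals through adaptors and kinases, and the debris it helps to clear is broken down in lysosomes. Of 10 genes of Trem2 signalling and macrophage growth, edgeR called none in SB + TAA (4 at an unadjusted p under 0.05, with 0 called by limma-voom and 1 by DESeq2) or in c-Met + saline (2, 0 and 0), 3 in NRas + saline and 2 in each combination. They were Csf2ra, a growth factor receptor chain (2.38 ± 0.62 in NRas + saline), Il34, a macrophage growth factor, and Tyrobp, the adaptor of Trem2 (1.00 in SB + TAA, not called, and 1.19 in NRas + saline, called). Of 19 lysosome genes, 1, 0, 3, 3 and 6 were called higher in SB + TAA, c-Met + saline, NRas + saline, c-Met + TAA and NRas + TAA. In SB + TAA the 1 gene called stands beside 3.48% of all genes. The medians of the list lay between 0.22 and 0.43, and those of all genes between 0.02 and 0.09. The cathepsin inhibitor Cstb rose by 0.99 in SB + TAA, a call that was lost without replicate 4 (0.95, adjusted p = 0.0803), and by 1.31 in NRas + TAA. The cathepsins Ctsl, Ctss and Ctsd were called in NRas + TAA, by 0.87, 1.11 and 0.78.

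Of 10 transcription factors tied to the programme, Spi1, which encodes PU.1, was called higher in NRas + saline (1.30) and in both combinations (1.37 and 1.27). Pparg, a lipid-sensing factor also of hepatocytes, was called lower in SB + TAA (−2.01 ± 0.39, adjusted p = 0.00275) and in no other group. Cebpa was lower in the NRas livers with saline (−0.87) and with TAA (−1.05), and Rxra in the latter (−0.59). The lysosomal factors Mitf, Tfeb, Tfe3 and Tfec, singled out here after their values were seen, were not called in any comparison with SB + saline. Of 8 monocyte-attracting chemokines, 2, 1, 4, 1 and 1 were called higher in the same order of groups. With edgeR, Ccl5 was called in all 5 (1.79 to 3.45). Ccl2, the main ligand of Ccr2, was called in SB + TAA (2.84 ± 0.75) and NRas + saline (2.90 ± 0.75), and Ccl7 and Ccl8 in NRas + saline. In NRas + saline limma-voom called none of the 8 (adjusted p = 0.0737 for Ccl5 and 0.106 to 0.211 for the other 3), whereas DESeq2 called 5. The call of Ccl2 in SB + TAA was lost with limma-voom (adjusted p = 0.0965) and without replicate 4 (2.47, adjusted p = 0.0984).

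Lists of cell type markers place these changes beside the other cells of the liver. Of 14 genes of Ly6c monocytes, the circulating cells from which scar-associated macrophages arise, 8, 0, 6, 5 and 5 were called higher, and Ccr2 is itself among them. Without SB + TAA replicate 4 the first count was 6. In c-Met + saline 3 of the Ly6c genes had an unadjusted p under 0.05, and DESeq2 called 1. Plac8 rose by 1.97 in SB + TAA, Cd52 by 1.36, Ly6c2 by 2.07 and Cx3cr1 by 2.75. Of 14 pan-macrophage genes, 2, 0, 9, 6 and 9 were called higher (1 in SB + TAA without replicate 4), among them Cd68 in 4 of the groups and Fcer1g, Adgre1 (F4/80) and Cd14 in oncogene groups. In c-Met + saline 6 of the pan-macrophage genes had an unadjusted p under 0.05, and none was called by limma-voom or DESeq2. Of 13 Kupffer cell genes edgeR called none in the first 4 groups (1, 3, 4 and 4 at an unadjusted p under 0.05, with none called by DESeq2 and 1 by limma-voom, in c-Met + TAA) and 3, Cd5l, Clec1b and Il18bp, in NRas + TAA (0.95, 0.86 and 1.01). The Kupffer markers Clec4f and Timd4 stood at 57.1 and 4.97 CPM in SB + saline and at 52.3 and 6.10 CPM in SB + TAA, changes of −0.14 and 0.27.

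The summed levels of the lists moved in different directions. The 10 genes summed to 74.5 to 101 CPM in SB + saline and 270.4 to 730.3 CPM in SB + TAA. Cd63 was the largest part of the SB + TAA sum (221.9 CPM by group mean). The 730.3 CPM were those of replicate 4, where Lpl alone held 222.9 CPM. The pan-macrophage genes summed to 224 to 430 and 459 to 594 CPM, and the Kupffer genes to 307 to 593 and 416.5 to 476 CPM, in the same groups. The 21 partner genes summed to less in SB + TAA, 16920 to 28730 CPM against 30510 to 33550 CPM, and nearly all of that sum was Apoe, a lipoprotein gene of hepatocytes too (31460 ± 1298 and 20780 ± 5150 CPM, adjusted p = 0.108). Set against the pan-macrophage sum of the same liver, Gpnmb was at 0.0467 ± 0.0934% in SB + saline and 1.81 ± 0.913% in SB + TAA, Mmp12 at 0.156 ± 0.0612% and 4.22 ± 2.55%, Trem2 at 0.322 ± 0.154% and 1.86 ± 0.775%, and Cd63 at 4.64 ± 0.70% and 41.6 ± 11.3%. The livers of these groups did not overlap in these 4 shares or in those of Lgals3, Itgax and Ccr2. They overlapped in the shares of Cd9 (4.86 ± 1.13% and 6.87 ± 0.83%), Lpl (7.94 ± 2.61% and 17.4 ± 15.9%) and Fabp5, whose mean share was lower in SB + TAA (6.61 ± 3.93% and 5.09 ± 3.28%). In NRas + saline the shares were 0.379 ± 0.158% for Gpnmb, 1.48 ± 0.889% for Mmp12 and 0.512 ± 0.373% for Trem2. In each of these 3 the livers overlapped with SB + saline, through replicate 1 alone. In c-Met + saline they were 0.695 ± 0.382%, 1.48 ± 0.844% and 1.09 ± 0.0633%, with no overlap with SB + saline. The pan-macrophage sum includes Cd14, which changed by 4.51 on the log2 scale in NRas + saline, where the median of its list was 1.06. The part of Cd14 in the shares was not tested. These shares are ratios of signals in whole tissue and were not tested.

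**Figure D5:**
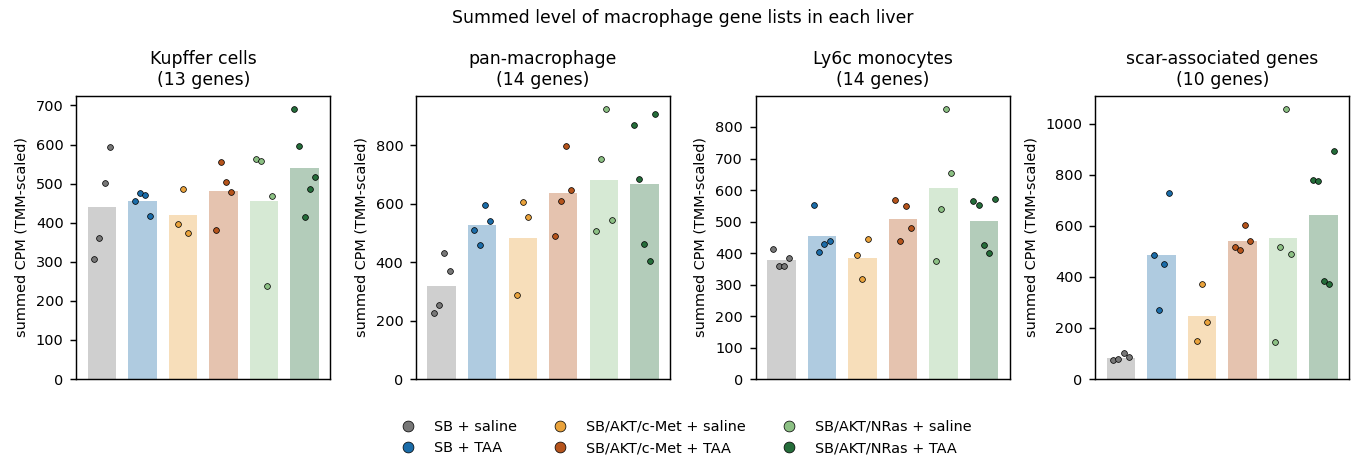
Summed CPM (TMM-scaled, linear axes from 0) of 13 Kupffer cell genes, 14 pan-macrophage genes, 14 Ly6c monocyte genes and the 10 scar-associated genes in each liver, where points are livers and bars are group means. The Kupffer sums overlap in all groups, while the 10 genes sum to 74.5 to 101 CPM in SB + saline and to at least 143 CPM in every other liver. A sum follows the most abundant genes of its list. The Ly6c sums have medians of 372 CPM in SB + saline and 433 CPM in SB + TAA, where the median log2 change of the 14 genes is 2.02.

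The other cell types that can carry these transcripts were checked with the same model. None of 10 dendritic cell genes was called in any of the 5 comparisons with SB + saline by edgeR, limma-voom or DESeq2 (0 to 2 in each comparison had an unadjusted p under 0.05, and DESeq2 gave no adjusted p for 6 to 8 of them), and their sum stayed within 3.98 to 16.2 CPM, with Flt3 at 0 to 0.433 CPM by group mean. Of 9 neutrophil genes, S100a8 and S100a9 were called in NRas + saline (2.65 and 2.66) and Retnlg in NRas + TAA. Of 12 genes of stellate cells and fibroblasts, 5, 0, 6, 1 and 5 were called higher, with Col1a1 at 2.42, 3.54 and 2.44 in SB + TAA, NRas + saline and NRas + TAA, and Timp1 at 5.27 in NRas + saline. Lum was called in all 3 TAA groups. Des was called in SB + TAA alone (3.26), and it is a gene of muscle too. Without SB + TAA replicate 4, which held 875 CPM of this list against 427 to 503 CPM in the other livers of its group, Des lay at −0.08 and 1 of the 12 genes, Lum, stayed called there. limma-voom called 1, 0, 2, 1 and 1 of the 12 genes in the same order of groups, and DESeq2 4, 0, 6, 2 and 6.

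Of 9 bile duct genes, 1, 0, 3, 0 and 1 were called higher. In NRas + saline these were Spp1, Epcam and Sox9, and their list summed to 154 to 8817 CPM there, against 61.6 to 106 CPM in SB + saline. Cd9, Cd63, Lgals3 and Fabp5 are also used by such epithelial cells, and the part of those cells in their levels was not tested. Of 10 sinusoidal endothelium genes, Lyve1 alone was called, in the 3 TAA groups (1.99 to 2.00), and in SB + TAA it was lost without replicate 4 (1.68, adjusted p = 0.0936). Of 10 hepatocyte genes, 2, 0, 5, 3 and 4 were called lower and none higher (1 lower in SB + TAA without replicate 4). Of 7 adipocyte genes, Cidec and Fabp4, which hepatocytes with stored fat also use, were called higher in oncogene groups, Cfd was called lower in all groups but c-Met + saline, and Car3, a gene of hepatocytes too, in SB + TAA and both NRas groups. edgeR called all 10 skeletal muscle genes higher in SB + TAA and none of them without replicate 4, limma-voom called none, and DESeq2 gave none an adjusted p.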

How the data were processed

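RNA was taken from pieces of snap-frozen liver, and libraries were primed on the poly(A) tail with a molecular identifier (UMI) on each cDNA and sequenced on a NextSeq550. Sabre split the reads by library, STAR mapped them to GRCm38 plus human NRAS and MET, and the authors removed duplicates by UMI within RNAsik and made the deposited counts per gene with featureCounts 1.6.4, on the forward strand (-s 1) and with a minimum mapping quality of 10 (-Q 10). The deposited table of gene positions (type other, not a measurement) gave coordinates and strand. The deposited counts of assigned and unassigned records per library gave the share assigned. Since counts come from transcript ends, they were not divided by gene length, and levels were compared between livers and not between genes. Reads that map to several places were dropped, which touches genes with near-identical copies. No column of samples was left unassigned (0).

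Samples were grouped by their labels into 6 groups. The tests used edgeR 4.0.16 in R 4.3.3. A gene was kept if 2 or more livers reached 0.5 CPM, TMM factors set the scale, and 1 quasi-likelihood model with a mean per group gave 11 comparisons, 2 differences of TAA effects and an F test. The SE is the absolute log2 fold change divided by the square root of F. P-values are two-sided and were adjusted over all genes kept. Intervals for Gpnmb are exact binomial at 95%, and the floor for Itgax is 3 counts over a group. Both cover counting error only. Correlations used log2 CPM with a prior count of 2. Alternatives were limma-voom (limma 3.58.1), DESeq2 1.42.0, scaling by RLE size factors or by library size alone, filterByExpr or no filter on low counts, a replicate block, fits of only the 2 groups compared, a log2 fold threshold of 1, and leaving out each liver. Leaving out both livers that stand apart, and recounting the list genes without each liver, were added after seeing the data. The model was tested on simulated counts. Figures were drawn with matplotlib 3.10.9.

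The 10 genes and the lists were chosen with earlier results of these data known. Named genes were every member, the up to 4 called genes of each list with the smallest F-test p, defining markers where a result turns on them, and the 3 genes most like each member by correlation.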

Additional observations from a re-analysis of the deposited data

Results flagged for a closer look

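In groups of 4 or 5 livers, 5 of 50 sets of values (1 gene in 1 group) had a liver that stood apart from the others by Dixon's ratio of gap to range, a rule that chance meets in about 1 of 20 such sets. In SB + saline they were Gpnmb in replicate 3 (0.802 CPM, against 0 in the other livers) and Mmp12 in replicate 2 (0.568 CPM), where the first is a difference of 2 counts and the second of none, since each of these livers held 1 count of Mmp12 and replicate 2 had the smallest library. In SB/AKT/c-Met + TAA they were Cd9 in replicate 4, which was low at 56.2 CPM, and Cd63 in replicate 3, which was high at 258 CPM. In SB + TAA it was Lpl in replicate 4, at 222.9 CPM, the liver with the skeletal muscle transcripts.

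The effect of TAA in SB/AKT/NRas livers was called lower than its effect in SB livers for Mmp12 (−5.77), Gpnmb (−4.66), Cd63 (−3.35) and Ccr2 (−2.67), as log2 differences tested within the edgeR model. In CPM the TAA effects of Mmp12 were 21.9 in SB livers and −1.41 in NRas livers, and those of Cd63 were 206.7 and 76.9. With saline the mean of the NRas livers was above that of SB + saline in these 4 genes, and the livers overlapped in Ccr2 (replicate 1 at 1.76 CPM, against up to 2.81 CPM in SB + saline).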

How the results depend on the processing

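No called value of the 10 genes reversed under any alternative. The 40 called member values all remained called with DESeq2, RLE size factors, library size alone and no filter, as did 38 of 38 with filterByExpr, which drops Itgax, 35 of 36 in fits of only the 2 groups compared, 34 of 40 with the replicate block, 39 of 40 without both livers that stand apart (chosen after seeing the data) and 26 of 40 with limma-voom. Of the 960 values without 1 liver, 84 were no longer called.

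The number of the 10 genes called moved by over 1.5 times as follows. For SB/AKT/c-Met + saline against SB + saline (3 genes) it was 0 with limma-voom, 6 with DESeq2, 5 with library size alone, 7 with no filter, 1 with the replicate block, 8 with only the 2 groups and 6 without both livers. For the TAA effect in NRas livers minus that in SB livers (4 genes) it was 1 with limma-voom, 9 with no filter and 2 with the block, and for that in c-Met livers (0 genes) 5 with no filter and 1 without both livers. The F test called 5 genes with limma-voom. With no filter, the combinations had 2 (c-Met) and 2 (NRas) genes called against SB + TAA and 2 and 1 against their saline groups, and NRas against c-Met with saline had 2. With only the 2 groups, SB/AKT/c-Met + TAA had 2 genes called against SB + TAA and 1 against SB/AKT/c-Met + saline. Without both livers the latter had 1, and NRas against c-Met with saline 2. The cause was not tested.

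Without single livers the counts ranged from 6 to 10 (F test), and against SB + saline from 6 to 9 (SB + TAA), 0 to 6 (SB/AKT/c-Met + saline), 6 to 10 (SB/AKT/NRas + saline), 6 to 8 (SB/AKT/c-Met + TAA) and 5 to 8 (SB/AKT/NRas + TAA). They ranged from 1 to 2 for SB/AKT/NRas + TAA against SB + TAA, 0 to 1 for SB/AKT/c-Met + TAA against its saline group, 0 to 2 for NRas against c-Met with saline, 0 to 1 for the c-Met and 2 to 8 for the NRas difference of TAA effects.

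Of 160 counts of list genes (1 for each list, comparison with SB + saline and direction), limma-voom moved 15 down and 5 up by over 1.5 times and DESeq2 2 down and 14 up. Leaving out SB + TAA replicate 4 moved 7 down and 1 up, and leaving out SB/AKT/NRas + saline replicate 1 moved 18 up. The most moved down was 28, without SB + saline replicate 1.

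Replicate numbers did not pair the livers: the mean correlation of deviations was −0.0073 for the same number and 0.0021 for different numbers, and 4 of 24 livers correlated best with their own number. Depth limited Itgax, with at most 33 counts in a group, and the SB + saline levels of Gpnmb (2 counts) and Mmp12 (4 counts).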
